A study of Mus musculus with 12 samples.

Results

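The cytosolic ribosome joins a small subunit, which reads the messenger RNA, to a large subunit, which forms the peptide bond, and each holds ribosomal RNA and a set of proteins encoded by single genes scattered over the genome. The P stalk of the large subunit, made of Rplp0, Rplp1 and Rplp2, recruits the translation factors. Messages for these proteins are known for a run of pyrimidines at their 5′ end, the TOP sequence, through which the mTORC1 kinase sets how much of them is translated, and their genes are known for the many processed pseudogenes that they have left in mammalian genomes.

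The genes were chosen by symbol, as those that begin with Rpl, Rps or Rplp and a number, together with Rpsa, without pseudogenes and without the Rps6k kinases. The rule found 91 of the 27179 genes measured. An average log2 CPM (reads scaled to a common library size) of at least 0, an average CPM of 1, was reached by 89 of them in inguinal white adipose tissue (iWAT), by 88 in epididymal white adipose tissue (eWAT), and by 88 in both. Rpl3l and Rpl10l were below that limit in both tissues and Rpl39l in eWAT. The 91 symbols were 43 genes of the large subunit, 31 of the small subunit, the 3 genes of the P stalk, 13 paralogs, retrogenes and -like copies, and Rps19bp1, which encodes a binding protein of Rps19 and no ribosomal protein. Fau and Rack1, whose products also belong to the ribosome, lie outside the symbol rule.

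The samples were iWAT and eWAT of control mice of strain C57/BL6, 12 samples in 4 groups of 3. Saline mice received 5 injections of saline under the skin during 2 weeks of high-fat diet (HFD). The others received (D-Ala2)GIP[Lys37PAL], a stabilized analog of the gut hormone GIP, at 2 pmol/kg by the same schedule, after a first dose of analog among the injections of the 10 days on chow. The study describes its focus on male mice as a limit. For each tissue one deposited value per gene could be used, the authors' average log2 CPM over both treatments, so saline and analog are not compared here. No error, number of replicates or depth goes with these averages, and differences between genes or tissues below are descriptions that could not be set against the spread between mice. In whole tissue, fewer cells of a type and less RNA per cell cannot be told apart.

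Reads were paired and 40 bases long, and many ribosomal protein genes shared such stretches with other genes. Each stretch was taken alone, so what the mate of a read could add was not counted. In the 90 members matched to a GENCODE M21 transcript (GRCm38), the median share of 40-base words found in no other gene's transcripts was 44.1%. It was under 50% for 54 members and under 20% for 19, and 88 members shared a word with at least 1 pseudogene. The lowest share, 1.31%, belonged to Rps27, a zinc-finger protein of the small subunit. Its retrogene copy Rps27rt had the same coding sequence, identical at 255 of 255 bases, while Rps27l, the paralog induced by p53, matched it at 194 of 255 (76.1%). The first 90 coding bases are shown because they show how far reads of the 3 genes can be told apart, with capitals marking bases that differ from Rps27.
Rps27: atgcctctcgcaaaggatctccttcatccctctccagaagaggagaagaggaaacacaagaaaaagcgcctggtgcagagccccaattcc
Rps27rt: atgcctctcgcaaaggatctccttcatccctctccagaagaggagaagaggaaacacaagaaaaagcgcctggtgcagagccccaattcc
Rps27l: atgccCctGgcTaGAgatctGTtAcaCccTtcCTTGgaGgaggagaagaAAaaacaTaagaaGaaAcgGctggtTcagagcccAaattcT

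Rps27 lies on the minus strand at chr3:90212522-90213651, Rps27rt on the minus strand at chr9:114982366-114982739 and Rps27l on the plus strand at chr9:66946086-66949516. Levels on the log2 scale of CPM per kilobase of transcript (kb) use the length of 1 chosen transcript per gene. Comparisons between genes depend on that choice, which was 2045 bases for Rpl5 and 1242 for Rpl12. On this scale, Rps27 was at 6.58 in iWAT and 6.55 in eWAT, below Rps27rt at 8.75 and 8.57 and Rps27l at 7.89 and 8.19. How the reads were split between Rps27 and Rps27rt is therefore uncertain, and these are the levels as the counting assigned them.

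Rps12, a small-subunit protein, showed the same situation with pseudogenes. None of its 360 coding words was found in Rps12 alone. One word, at coding bases 332 to 371 on chromosome 10, occurred in transcripts of 23 other genes. It is given as an example of a read that, taken without its mate, has no single origin.
Rps12: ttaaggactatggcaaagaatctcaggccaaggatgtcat
The 432 coding words of Rpl23a, of the large subunit, were likewise all present elsewhere. The word shared most widely was found in 22 other genes.
Rpl23a: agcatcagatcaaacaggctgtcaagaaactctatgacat
At the other end, Rps3 had 95% of its words to itself, and Rps19bp1 and the muscle paralog Rpl3l 100%.

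The level of the members spread widely. On the log2 CPM per kb scale, the members that passed the limit and had a transcript spanned 6.66 in iWAT (88 genes) and 6.12 in eWAT (87 genes). The highest in iWAT was the retrogene Rps27rt. Core genes, whose proteins enter the ribosome in near equal numbers, ran from 2.09 (Rps12) to 8.39 (Rpl32) in iWAT. In eWAT they ran from 2.58 (Rpl39) to 8.70 (Rpl32). The median of all these members was 5.64 in iWAT and 5.93 in eWAT, against 2.80 and 2.78 for all genes that passed. Among the highest in iWAT were Rps27rt, Rpl32 (8.39 in iWAT, 8.70 in eWAT), Rps14 (8.33 and 8.33) and Rps19 (8.11 and 8.21). Rpl41, the shortest protein of the ribosome, stood at 7.91 in iWAT and 8.57 in eWAT. The lowest core members in both tissues were Rps12 (2.09 in iWAT, 2.74 in eWAT), Rpl39 (2.09 and 2.58), a protein of the exit tunnel, and Rpl12 (2.43 and 2.59). Rpl17 (3.40 and 3.97) and Rps13 (3.51 and 3.84) stood next above these 3. By average log2 CPM without correction for length, the 4 highest in iWAT were Rpl4 (8.37 in iWAT, 8.29 in eWAT), Rplp0 (8.15 and 8.30), Rps3 (7.96 and 7.90) and Rps14 (7.59 and 7.58). The order of the members was nearly the same in both tissues, with a Spearman rho of 0.985 across 87 genes. Genes are not independent replicates, and both tables share the same gene models and sequence overlaps.

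**Figure D1:**
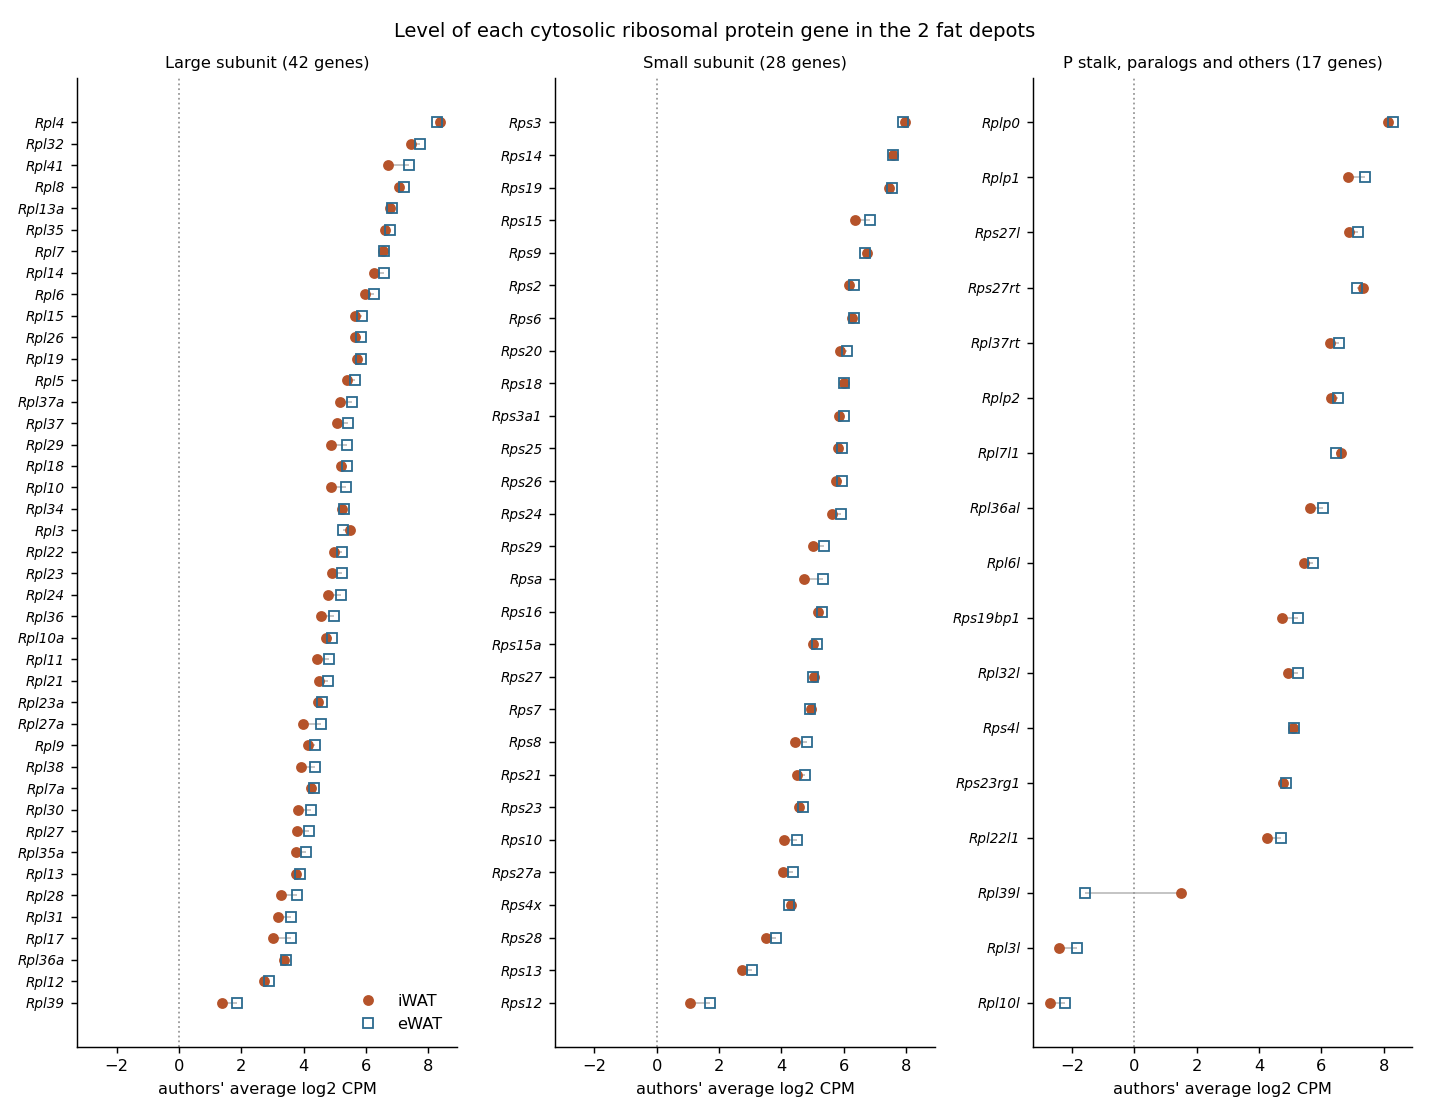
Authors' average log2 CPM of 87 of the 91 genes (x axis) in iWAT (filled circles) and eWAT (open squares), by subunit, sorted by eWAT; the dotted line is the limit of 0. Most squares lie to the right of their circles, levels run from 1.07 (Rps12, iWAT) to 8.37 (Rpl4, iWAT) among genes above the limit, and Rpl39l stands apart with 1.49 in iWAT and −1.60 in eWAT.

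The P stalk was high in both tissues. Rplp0 was at 7.71 in iWAT and 7.86 in eWAT on the log2 CPM per kb scale, Rplp1 at 7.87 and 8.39 and Rplp2 at 7.55 and 7.79, all above the median of the members. Rpsa, a small-subunit protein also known as the laminin receptor, was at 4.05 and 4.67. Rpl5 and Rpl11, which with 5S RNA form the particle that binds Mdm2, were at 4.36 and 4.63 and at 4.70 and 5.08. Some of the genes mutated in human Diamond-Blackfan anemia were looked up. Rps19, given above, Rps24 (6.57 and 6.85) and Rps26 (6.30 and 6.49) were above the median of the members, and Rps10 (5.08 and 5.51), Rps7 (5.25 and 5.20) and Rpl35a (4.78 and 5.09) below it.

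Of the paralogs known for restricted expression, Rpl3l and Rpl10l were low. The average log2 CPM of Rpl3l, a gene of striated muscle, was −2.41 in iWAT and −1.84 in eWAT, and that of Rpl10l, a gene of the testis, −2.70 and −2.22, both under the limit. Their broadly expressed partners Rpl3 and Rpl10 stood at 5.06 and 4.85 and at 5.22 and 5.68 on the log2 CPM per kb scale. Rps4l, which RefSeq annotates as a transcribed pseudogene, was at 5.42 and 5.47, above Rps4x at 4.35 and 4.28. Rpl36al was at 6.58 and 6.97 and Rpl36a at 4.41 and 4.50. Rpl22 at 6.07 and 6.32 was above Rpl22l1 at 5.17 and 5.63, and Rpl7 at 6.35 and 6.38 was above Rpl7l1 at 5.25 and 5.10. The share of words found in no other gene was 76.5% for Rps4l and 23.6% for Rps4x, and 50.3% for Rpl36al and 14.2% for Rpl36a. For Rpl22 and Rpl22l1 it was 66.4% and 44.0%, and for Rpl7 and Rpl7l1 41.8% and 85.2%. The part of read assignment in the order within these pairs was not tested. Rpl26 (6.58 and 6.77), Rpl29 (5.65 and 6.19) and Rpl13a (6.72 and 6.77) were at or above the median of the members in both tissues.

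Rpl39l was the only member above the limit in iWAT and under it in eWAT. This paralog of Rpl39 is known from mouse spermatogenic cells and lies on the plus strand at chr16:10170226-10174911. Its average log2 CPM was 1.49 in iWAT and −1.60 in eWAT, where it did not reach the limit, and the tables of the tissues were normalized separately. Because the eWAT average lies under the limit, the difference is not given as a fold. Unlike Rps27rt it could be told from its partner, with 98.4% of its words found in no other gene and 133 of 156 coding bases (85.3%) shared with Rpl39. The first 90 coding bases are given with capitals at those that differ from Rpl39.
Rpl39: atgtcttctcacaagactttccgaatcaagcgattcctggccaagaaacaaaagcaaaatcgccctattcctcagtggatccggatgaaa
Rpl39l: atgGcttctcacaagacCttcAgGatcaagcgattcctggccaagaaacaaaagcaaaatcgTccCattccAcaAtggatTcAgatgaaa

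Copies that the authors' tables name after a member held much of the signal of some families. The tables listed 73 such copies, mostly pseudogenes, of 36 members, and for 26 members at least 1 copy reached the limit in both tissues. The summed CPM of the copies was above that of the parent for 13 members in iWAT and 13 in eWAT. Rps12 had 10 copies, and its own CPM of 2.10 in iWAT and 3.31 in eWAT was 13.1% and 14.3% of the family's. Rpl13 held 17.5% and 18.7%, Rpl17 19.6% and 22.5%, Rpl23a 21.6% and 22.6%, Rpl31 24.1% and 26.3%, and Rps27a, a ubiquitin fusion, 33.5% and 34.0%. Rps19, Rps18 and Rplp1 held over 87% in both tissues. The sums hold only copies that carry the parent's name, 1 for each of these genes. By sequence, 18 pseudogenes shared a word with Rps19, 10 with Rps18 and 5 with Rplp1.

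**Figure D2:**
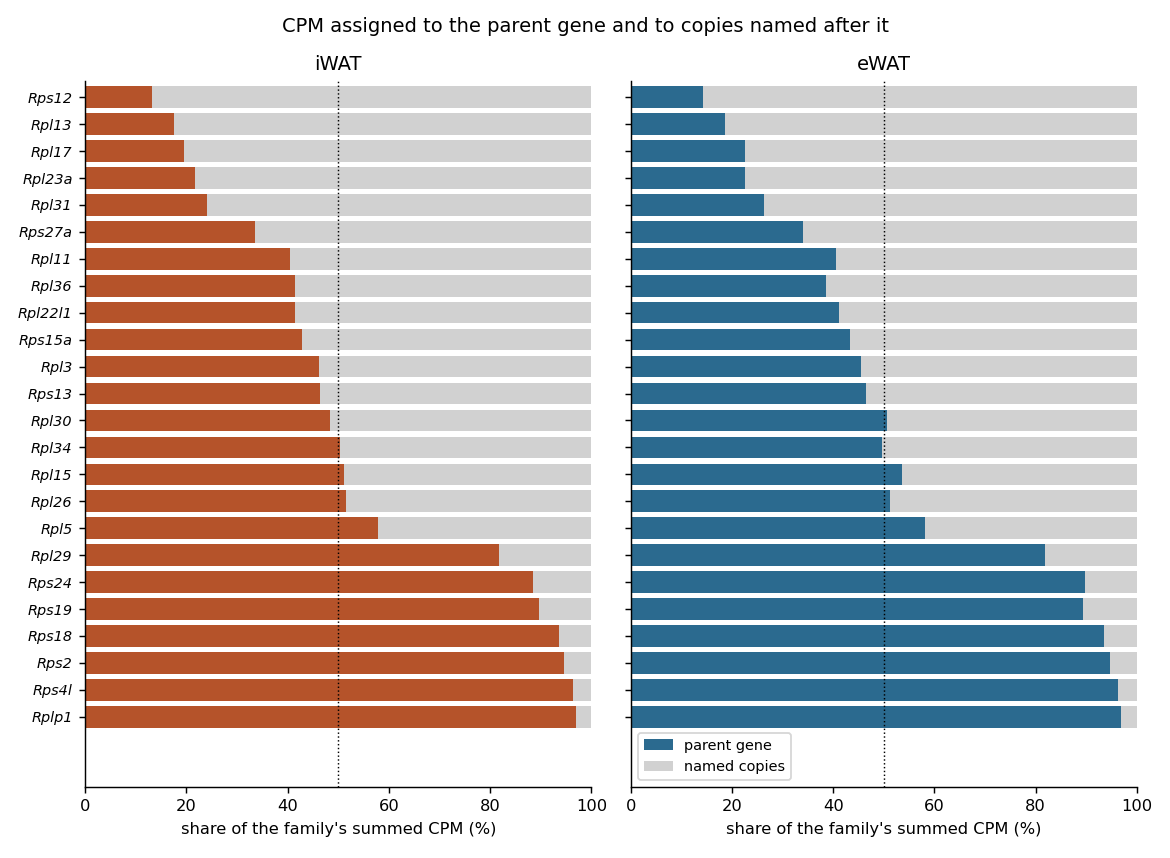
Share of each family's summed CPM (x axis, %) assigned to the parent gene (coloured) and to the copies named after it (grey) in iWAT (left) and eWAT (right), for 24 of the 26 members with a copy above the limit; the dotted line marks 50%. Rps12 has the smallest parent share, 13.1% in iWAT and 14.3% in eWAT, and the order of the families is similar in both tissues.

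Per length, some copies were also above their parent. Of the 45 copies above the limit in both tissues, 42 had a RefSeq span of at most 2 times the parent's transcript. Taking the span as the length, 15 of the 42 were above their parent on the log2 CPM per kb scale in iWAT and 14 in eWAT, and they belonged to 10 members in each. These counts depend on the lengths used, a genomic span for the copy and a transcript for the parent. Rpl5-ps2 (989 bases) was above Rpl5 (2045 bases) per kb. Its average log2 CPM was lower, 4.94 against 5.39 in iWAT and 5.18 against 5.66 in eWAT. Rpl13-ps6 was at 6.42 in iWAT and 6.46 in eWAT, against 4.10 and 4.25 for Rpl13. Gm10132 was at 6.26 and 6.30, against 5.30 and 5.44 for Rpl23a. Rps27a-ps3 was at 5.90 and 6.17, against 4.72 and 5.02 for Rps27a, and Rps12-ps10 at 3.11 and 3.52, against 2.09 and 2.74 for Rps12. Across 87 members, the log2 CPM per kb was lower where more pseudogenes shared a word, with a Spearman rho of −0.436 in iWAT and −0.455 in eWAT. With the share of words found in no other gene, rho was 0.175 and 0.176. These are correlations across genes of the same libraries. The sources used here do not state whether reads that match several places were counted, and the part of read assignment in these levels was not tested.

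Between the depots, most members had a lower average in iWAT than in eWAT. Of the 88 members above the limit in both, 77 (87.5%) were lower in iWAT and 11 higher, with a median difference of −0.25 on the log2 CPM scale (iWAT minus eWAT). Over all 13197 genes above the limit in both, 48.7% were lower in iWAT and the median difference was 0.01. Differences were small: none of the 88 members was lower or higher in iWAT by over 1 on the log2 scale, while 3.05% of all genes were lower and 4.18% higher by that much. Rpl39l, at 1.49 in iWAT and −1.60 in eWAT, is not among the 88 because it was under the limit in eWAT. The members were also closer together than genes at large, with an SD across genes of 0.201 for the members and 0.593 for all. These sets were not matched on level. Among genes above the limit in iWAT, the median average log2 CPM was 5.06 for members and 4.11 for all. The tables were normalized separately for each tissue, and without values per mouse the difference has no test.

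**Figure D3:**
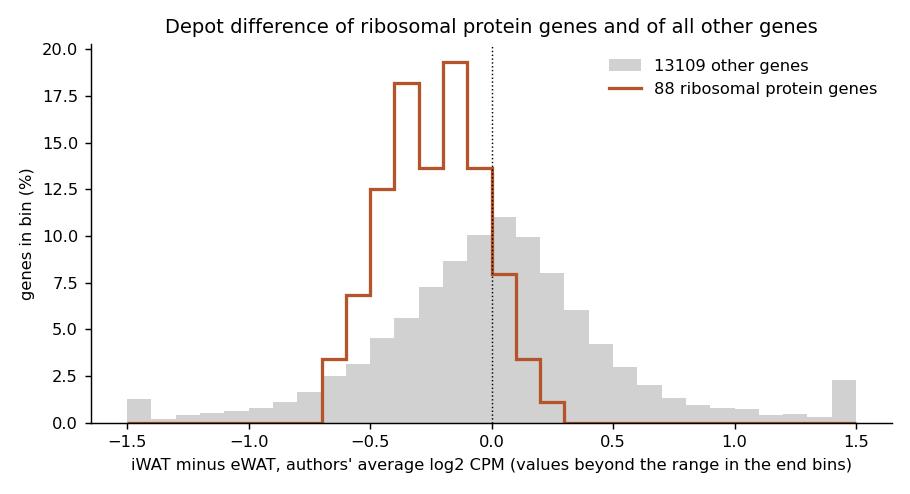
Share of genes in each bin (y axis, %) by the difference in authors' average log2 CPM, iWAT minus eWAT (x axis), for the 88 ribosomal protein genes (line) and all other genes above the limit (grey); the dotted line marks 0. The members run from −0.65 to 0.21 around a median of −0.25, while all genes centre on 0.01.

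The members lowest in iWAT relative to eWAT were Rps12 (1.07 in iWAT and 1.73 in eWAT, a difference of −0.65 in average log2 CPM) and Rpl41 (6.72 and 7.37, −0.65). They were followed by Rpsa (4.72 and 5.35, −0.63), Rpl27a (3.97 and 4.56, −0.60), Rpl17 (3.03 and 3.60, −0.57), Rpl29 (4.87 and 5.41, −0.53) and Rplp1 (6.87 and 7.39, −0.52). Rps19bp1, which encodes no ribosomal protein, differed by −0.53. The other P stalk genes differed less, Rplp0 by −0.15 and Rplp2 by −0.25. The 11 members with the higher value in iWAT were led by Rpl3 (5.49 and 5.28, 0.21), Rps27rt (7.33 and 7.15, 0.17) and Rpl7l1 (6.63 and 6.48, 0.15). Rpl4, Rps4x, Rps3, Rps9, Rps7, Rps27 and Rps14 exceeded their eWAT average by 0.08 or less.

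By subunit, 40 of 43 large-subunit genes were lower in iWAT, with a median difference of −0.27, and 25 of 31 small-subunit genes, with a median of −0.17. All 3 P stalk genes and 8 of 10 paralogs and retrogenes were lower. Of the 9 genes in a list drawn from Diamond-Blackfan anemia and the 5S particle, not all genes of that disease, 8 were lower, with a median of −0.28, and Rps7 was the exception. The summed CPM of the members was 5179 in iWAT and 5810 in eWAT, or 0.515% and 0.577% of the sum over all genes. Fau and Rack1, ribosome components outside the symbol rule, were lower in iWAT too, with differences of −0.26 and −0.32.

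Copies differed between depots much as their parents did. Of the 45 copies above the limit, 41 were lower in iWAT (91.1%), with a median difference of −0.22. Across the 26 families, the difference of the parent and that of its summed copies had a Spearman rho of 0.881, where parent and copies share sequence and so may share reads. Summed over parent and copies, 25 of the 26 families were lower in iWAT, with a median of −0.26. Rps12 with its copies differed by −0.53, close to the −0.65 of Rps12 alone.

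Other parts of the translation machinery varied. Of 6 elongation factor genes, Eif5a included, 4 were lower in iWAT (median −0.14), with Eef1a1 at −0.11 and Eef2 at 0.09. The list of 40 genes of initiation factors and 4E-binding proteins had 26 lower (median −0.09), and the 57 ribosome biogenesis genes had 25 lower (median 0.12). Of 19 genes in a list of RNA polymerase I subunits and factors and 19 in a list around mTORC1, Myc and Max included, 12 each were lower (medians −0.06 and −0.15). Among 25 other messages known to carry a TOP sequence, 16 were lower (median −0.07), and 13 of the 25 are also in the lists of elongation and initiation factors. Of the 12 in neither of those lists, 10 were lower (median −0.17). The mitochondrial ribosomal protein genes, which serve another ribosome, lay on the other side, with 29 of 78 (37.2%) lower in iWAT and a median of 0.08.

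**Figure D4:**
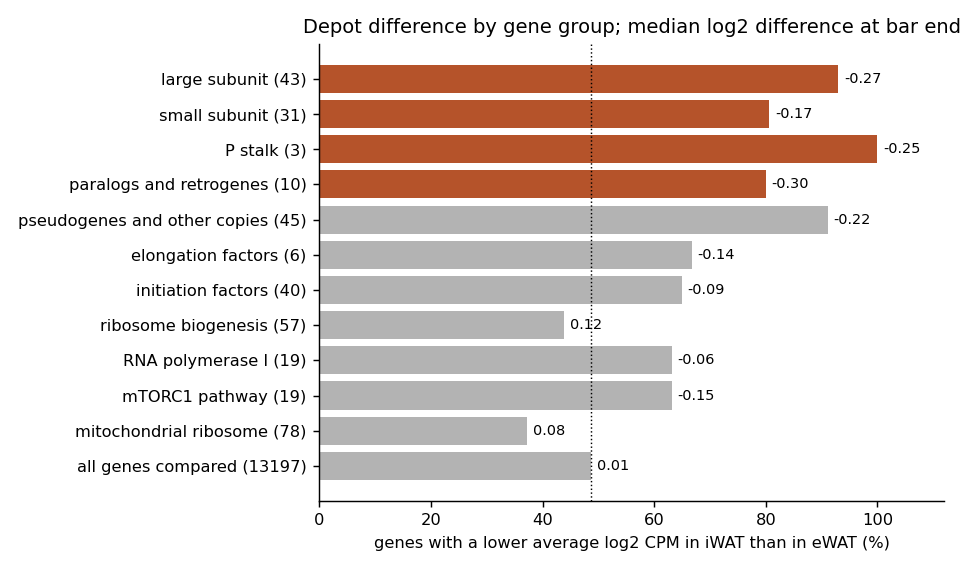
Share of genes with a lower average log2 CPM in iWAT than in eWAT (x axis, %), for groups of ribosomal protein genes (coloured) and other gene lists (grey), with the number of genes in parentheses and the median log2 difference at the bar end; the dotted line is the 48.7% of all genes. The 4 groups of ribosomal protein genes lie between 80% and 100%, the mitochondrial ribosome at 37.2%.

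The difference varied with transcript length, without a single direction. Ribosomal protein messages are short, and of 1087 other genes with transcripts of up to 1000 bases, 57.9% were lower in iWAT, with a median difference of −0.06. From 1000 to 5000 bases the medians of other genes lay above 0, and at over 5000 bases, where there was no member, 63.2% of 1816 other genes were lower, with a median of −0.15. The 69 members with transcripts of up to 1000 bases had 63 lower (91.3%) and a median of −0.27. At up to 500 bases, the median was −0.31 for 21 members and −0.15 for 153 other genes, and at 500 to 750 bases it was −0.28 for 25 members and −0.05 for 397 other genes. Among 87 members, the difference and the transcript length had a Spearman rho of 0.318. The part of length in the difference was not tested further.

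**Figure D5:**
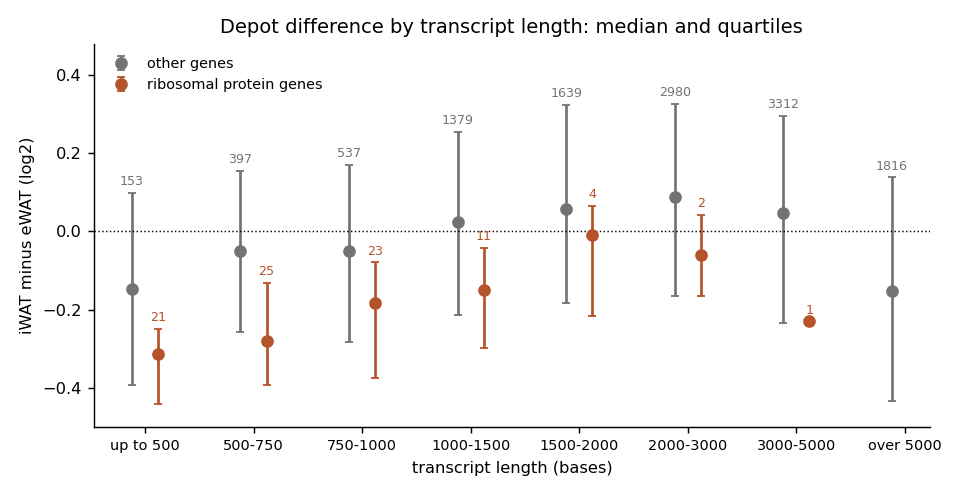
Median difference in average log2 CPM, iWAT minus eWAT (y axis), by transcript length in bases (x axis), for ribosomal protein genes (coloured) and other genes (grey); bars span the quartiles and numbers give the genes in each bin. The members lie below the other genes in every bin that holds both, from −0.31 against −0.15 at up to 500 bases; bins above 1500 bases hold 4 members or fewer.

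Cell type markers and structural RNAs also differed between these tables. All 10 B cell markers and all 10 T cell markers reached the limit in iWAT, against 5 and 8 in eWAT, and their summed CPM was 250 against 16.4 for B cells and 181 against 19.5 for T cells. All 8 macrophage markers were higher in iWAT (median 0.62). Of the 10 adipocyte markers, 6 were lower and 4 higher in iWAT. Their median difference was −0.06, with a range from −1.02 (Retn) to 0.38 (Plin1). Adipoq, which encodes the adipocyte hormone adiponectin, was at 11.58 in iWAT and 11.84 in eWAT. The 5 ribosomal and other structural RNAs above the limit were lower in iWAT (median −1.50). The part of lymphocytes, macrophages or structural RNAs in the lower ribosomal protein averages of iWAT was not tested.

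The annotated starts of the genes were examined in RefSeq promoters of GRCm38.p6, which hold 250 bases before and 50 after each start and matched 69 of the 91 members. A C followed by 5 or more pyrimidines, on the strand of the gene and beginning from 5 bases before to 5 bases after the start, was present in 29 of 69 members (42%), against 11.9% of all 27025 genes with a promoter and 12.8% of those above the limit. With 4 or more pyrimidines in place of 5, the run was in 46.4% of members and 21.2% of all genes, and with 5 or more beginning within 10 bases of the start in 53.6% and 21.9%. The windows run from 10 bases before the start to 19 after it. Capitals mark the longest C followed by 3 or more pyrimidines that begins no later than 5 bases after the start, where there was one. Members with values above are shown. Rps27 and its retrogene Rps27rt, Rps26, Rplp2 and the first start of Rps24 had a run as first counted. Rps12, the second start of Rps24 and the 3 starts of Rps19 had none beginning within 5 bases of the start. In Rps12, the second start of Rps24 and the last start of Rps19, a run of that length begins farther after the start and is left in lower case.
Rps27 (chr3:90213629-90213658, minus): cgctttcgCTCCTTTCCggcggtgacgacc
Rps27rt (chr9:114982720-114982749, minus): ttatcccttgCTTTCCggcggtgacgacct
Rps26 (chr10:128626487-128626516, minus): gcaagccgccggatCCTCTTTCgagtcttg
Rps24, first start (chr14:24490668-24490697, plus): gctggggtCCTTCCTTgcgcgttgatatga
Rplp2 (chr7:141447641-141447670, plus): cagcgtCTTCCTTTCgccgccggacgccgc
Rps12 (chr10:23787190-23787219, minus): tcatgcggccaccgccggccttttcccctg
Rps24, second start (chr14:24490743-24490772, plus): cgccgtagccatcatggtgagtctcctcgg
Rps19, first start (chr7:24884582-24884611, plus): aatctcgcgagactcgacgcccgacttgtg
Rps19, second start (chr7:24884666-24884695, plus): cggtgagtgagggCTCTgggtcgcggctgt
Rps19, last start (chr7:24884903-24884932, plus): agcggggtgtggagggctctcccacgcggt
The windows of Rps27 and Rps27rt shared a run of 19 bases, ctttccggcggtgacgacc, and differed before it.

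Members with and without the pyrimidine run at the annotated start were mostly lower in iWAT. The median difference was −0.19 for the 29 with it, of which 26 were lower in iWAT, and −0.30 for the 37 without it that were above the limit, of which 32 were lower. The split depends on the window around the annotated start. Within 10 bases of the start, 36 had the run (median −0.20, 33 lower) and 30 did not (median −0.28, 25 lower). The letters CCGGAAG, the core bound by ETS factors, were found on either strand in 26 of 69 promoters (37.7%), against 9.93% of all genes and 20.2% of genes above the limit. TATAAA occurred in 8 (11.6%), against 15.7% and 9.11%. The median depot difference was −0.25 for the 25 members above the limit with CCGGAAG and −0.24 for the 41 without it.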

How the data were processed

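Paired reads of polyadenylated RNA were trimmed by the authors (Trim Galore 0.6.4) and mapped to GRCm38 by Rsubread. The authors removed genes of low count by DESeq2 1.32.0, and the authors tested analog against saline in edgeR 3.34.0. The counting step and annotation are not given in the sources used here. The authors' deposited log2 values, the average log2 CPM of each gene per tissue, were the only values used. The tables also hold the authors' own fold changes, likelihood ratios, p-values and FDR, which were not used, and 12 columns of values per sample whose names match no sample label, which were not used in any step. The fit of analog against saline fixed in the design was therefore not run, and depth and precision per sample are unknown.

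Computed here were the difference of the averages of iWAT and eWAT, levels per kb with 1 GENCODE M21 transcript per gene (coding, shortest well supported), sums over copies named after a member, 40-base words shared between transcripts on either strand, and promoter motifs. Members, gene lists and named genes were chosen with earlier results of these data known, by symbol and role. Genes that encode no factor were taken out of the elongation list after their values were seen. Copies, words, motifs and the comparison of tissues were added after seeing the data, as were the genes named for the size of their difference or for their copies. The word and summary steps were tested on simulated data. Python 3.11.15, pandas 2.3.3, numpy 2.4.6, scipy 1.17.1 and matplotlib 3.10.9 were used. Values of a few members are not reported here.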

Additional observations from a re-analysis of the deposited data

How the results depend on the processing

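The alternatives for the difference between the tissues were chosen after seeing the data. The share of members lower in iWAT was 87.5% (77 of 88, exact Clopper-Pearson 95% interval 78.7 to 93.6%, which treats genes as independent and covers no error between mice). It was 86.8% with no limit on the average, 87.5% at a limit of 1 and 81.2% (39 of 48, median −0.166) at a limit of 5. With no limit, Rpl3l and Rpl10l count as lower in iWAT, but very low averages differ between the tissues by themselves. The copy Rplp2-ps1, at −2.82 in iWAT and −2.33 in eWAT, differed by −0.49, and so did Rpl10l. The 48.7% of all genes lower in iWAT is for the limit of 0, and no such share is given at the other limits. The share of members was 88.3% for the 77 core subunits. It was 88.6% after centring on the median of all genes or scaling without mitochondrial and non-coding RNAs or without the 50 most abundant genes. By rank it was 87.5%, and after centring on other short genes 79.5%. Centring on the mitochondrial ribosomal protein genes moved it to 94.3%. The median stayed between −0.325 and −0.166, and no alternative reversed it. The alternatives planned for analog against saline (normalization, another test, thresholds, adjusted genes, leaving out replicates) were not run, since no value per sample could be tied to a group. No paired analysis was possible because the columns of values per sample carry no replicate number or group. The depth that would limit low members such as Rpl39l in eWAT is unknown.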
